A study of Drosophila melanogaster with 24 samples.

Results

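The glutathione S-transferase (Gst) genes of Drosophila melanogaster were taken as every gene whose FlyBase symbol is GstD, GstE, GstO, GstS, GstT or GstZ followed by a number, and 35 of the 14220 genes summed from the files met this rule. They comprised 11 Delta, 14 Epsilon, 3 Omega, 1 Sigma, 4 Theta and 2 Zeta genes. The 24 RNA-seq libraries were each made from 1 pool of 10 abdominal carcasses of mated females, a carcass being the fat body on the body wall with remnants of other tissues. The 4 groups of 6 libraries were Selected populations raised as larvae on the poor diet, Selected populations on the standard diet, Control populations on the poor diet and Control populations on the standard diet. Selected and Control are evolutionary regimes of 6 replicate populations each (S1 to S6 and C1 to C6), in a study of how larval undernutrition shapes adult expression. Yeast, sugars and cornmeal in the poor diet were at 0.25 of their standard concentration, and all adults were kept on standard food before sampling at about 4 days of age. The labels give no transgene or mutation, name no strain and do not state the food on which each regime was maintained. Each population contributed 1 library per diet, so a replicate is a population and the spread among carcass pools of 1 population was not measured.

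The labels of the libraries contradict each other. The title names the other diet than the characteristics in 24 of 24 libraries. It names the other regime in 12 libraries, and in 0 does its population match. Every group, pairing and direction here rests on the characteristics. If the titles were right about diet alone, every diet direction would turn round. If they were also right about regime and population, 12 libraries would change regime and some libraries would be paired with a different library. No comparison was run with the titles, so whether the diet and regime results would hold under them was not tested. Total estimated counts were 29.4 to 31.5 M in 23 libraries and 22.4 M in the library of S2 on standard food. Markers of tissues that dissection was meant to remove varied widely among libraries. The summed level of 19 ovary and germline markers ran from 33.5 to 2467 CPM (counts scaled to the library total), and that of 20 midgut markers from 15.2 to 20231 CPM, the highest in S6 on standard food. In bulk samples, fewer cells of a type and less RNA per cell cannot be told apart.

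Glutathione S-transferases join the tripeptide glutathione to reactive or foreign molecules, which makes these easier to excrete, and some reduce peroxides or act as isomerases. The insect-specific Delta and Epsilon classes are best known for detoxifying insecticides, plant compounds and products of lipid peroxidation, while Omega, Sigma, Theta and Zeta enzymes occur across animals. Several Delta and Epsilon genes are targets of the oxidative stress regulator CncC, and the fat body is a main site of detoxification in the fly.

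The genes lie largely in tandem groups (BDGP6.54). All 11 Delta genes sit within 20.8 kb of chromosome 3R (12364776-12385624), and 10 Epsilon genes (GstE1 to GstE10) sit within 13.2 kb of 2R (18396638-18409835). GstE11, GstE12, GstE13 and GstE14 lie elsewhere on 2R, as does GstS1. The 3 Omega genes share 5.98 kb of 3L, GstZ1 and GstZ2 share 5.14 kb of 3R, GstT1 and GstT2 are neighbours on 2R, and GstT3 and GstT4 are on X. Neighbouring paralogs can share reads in the authors' transcript quantification, which would make values of close copies uncertain and leave fractions in estimated counts. Totals over the 24 libraries were whole for GstD2 (387), GstD3 (2141), GstD5 (479), GstE7 (3630) and GstE10 (1611). Fractions appeared in the totals of GstD10 (441.003) and GstT2 (13839.1), and in the highest count of GstT3 (1627.01). How far reads were shared was not tested. Exons of GstE1 and GstE10 overlap by 127 bases on opposite strands, and GstE9, GstE12, GstE13, GstO2 and GstT2 overlap a gene that the symbol rule does not name by 6 to 223 bases. The partner of GstO2 is se (sepia), itself an Omega-class enzyme. No source used here states a strand setting for the quantification, and without one the reads of such overlaps cannot be told apart.

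A few genes carried most of the Gst messages in the carcass. Levels between genes are given in TPM, a relative transcript abundance that corrects for transcript length. GstE12 had the highest level, 512 ± 95.8 TPM (SD over 24 libraries), above 97.4% of tested genes in mean TPM. GstD1, an enzyme known to break down DDT and a widely used reporter of oxidative stress, followed at 316 ± 93.6 TPM. GstE9 at 289 ± 77.4 TPM and the Theta gene GstT4 at 241 ± 53.6 TPM came next. Neighbours in this order, apart from GstE12 above GstD1, differed in mean by less than the SD of either gene. GstO3, named in the Omega class whose members are known to reduce dehydroascorbate, had 104 ± 10.7 TPM.

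The next genes in level were GstT1 at 73.1 ± 17.4, GstE1 at 70.1 ± 11.6 and GstO2 at 67.3 ± 10.7 TPM, again closer together than their SD. The remaining classes were led by GstZ2, a Zeta enzyme of the kind that isomerises maleylacetoacetate in tyrosine breakdown, with 31.5 ± 7.67 TPM, and by GstS1, the single Sigma enzyme, known for conjugating the lipid peroxidation product 4-hydroxynonenal, with 28.4 ± 10.1 TPM. By class, Epsilon genes made up 50.8% of all Gst TPM, Theta 19.7%, Delta 16.3%, Omega 9.43%, Zeta 2.34% and Sigma 1.41%. The low end held 6 genes that did not pass the filter on low counts: GstD4, GstD6, GstD7, GstD8, GstD11 and GstE4. Their highest estimated count in any library was 4 to 20, and each was at 0 in 5 to 13 of the 24 libraries. The tested set is therefore 29 of the 35 genes: 6 Delta, 13 Epsilon and all Omega, Sigma, Theta and Zeta genes.

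**Figure D1:**
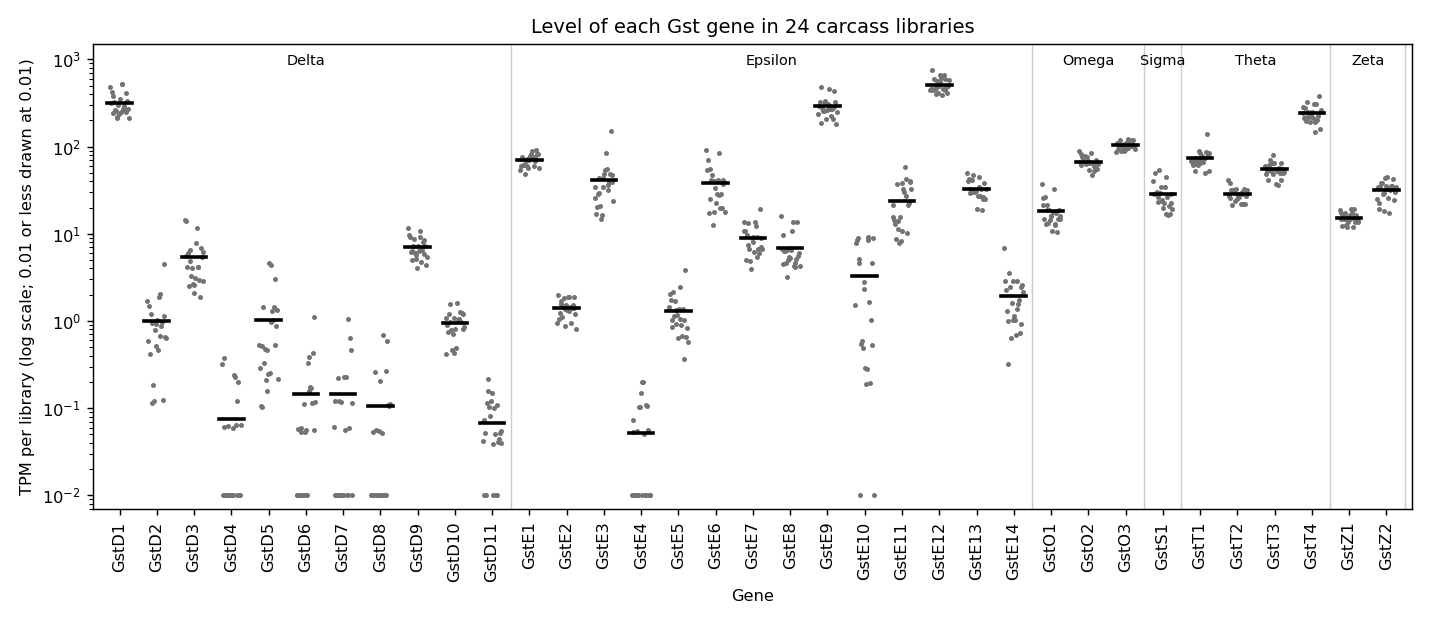
Level of each Gst gene in TPM (log scale) in each of 24 libraries (dots), with the mean as a bar and genes grouped by class; values of 0.01 TPM or less are drawn at 0.01. GstE12 (mean 512 TPM), GstD1 (316), GstE9 (289) and GstT4 (241) stand highest, and the untested Delta genes and GstE4 reach 0 in part of the libraries.

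Within genes of several transcripts, 1 transcript usually dominated. Transcript FBtr0082607 held 97.6% of GstD1 TPM, and in GstE12 transcript FBtr0072436 held 94.9%. GstO2 and GstS1 were more evenly divided: FBtr0076653 held 77.1% and FBtr0076654 22.9% of GstO2, and FBtr0087005 held 71.1% and FBtr0087006 25.4% of GstS1. The GstD1 transcript that dominated averaged 241 TPM in Selected on poor food against 353 TPM in Selected on standard food, and 282 TPM in Control on poor food against 359 TPM in Control on standard food. The minor GstD1 transcript, FBtr0100410, stayed between 6.96 and 7.77 TPM in all 4 group means.

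The first comparison asked how the larval diet marked adult expression, setting the poor-diet library of each population against its standard-diet library. GstD1 was lower after the poor larval diet in 12 of 12 populations and was the only Gst gene called, where a call means a Benjamini-Hochberg adjusted p below 0.05 over the 10184 tested genes. Most other Gst genes had small negative differences that did not pass the test, with the Delta class the furthest below 0 and the Theta class divided. Among all genes 1.13% were called for diet, 0.265% lower and 0.864% higher on the poor diet.

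GstD1 (FBgn0001149, 3R 12367817-12369268) had 132, 154 and 222 CPM (lowest, median, highest) in the 12 poor-diet libraries, against 167, 228 and 322 CPM in the 12 standard-diet libraries. The 2 diets overlapped across populations, but within each population the poor-diet library was the lower one. The fitted change was a log2 fold change of -0.43 ± 0.05 (SE), with an adjusted p of 0.0107 in edgeR's quasi-likelihood test with population as a block, the smallest p of all tested genes. Over populations the log2 difference ran from -0.82 in S1 to -0.12 in C2, and 0.373% of tested genes were lower on the poor diet in all 12 populations. Without the shallow S2 pair GstD1 had a log2 fold change of -0.43 and an adjusted p of 0.0426, and without S6 of -0.42 and 0.0282. With no block for population the log2 fold change was -0.44 and the adjusted p 0.0950, so the call rests on the pairing of libraries within populations.

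**Figure D2:**
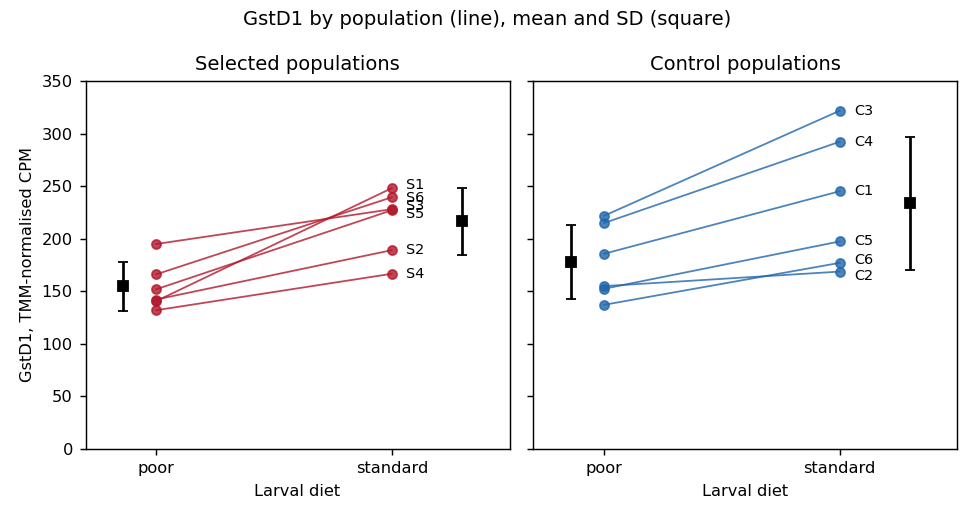
GstD1 in TMM-normalised CPM on the poor and the standard larval diet, with a line per population and squares for mean ± SD (n = 6); Selected populations are in the left panel and Control in the right. The poor-diet library lies below the standard-diet library in 12 of 12 populations, with means of 155 against 216 CPM in Selected and 178 against 234 CPM in Control.

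Tissue markers also differed between diets, in both directions. Of 9 tested fat body markers, 8 were negative on the poor diet and 4 were called lower: the yolk protein genes Yp1, Yp2 and Yp3, and fit, a female fat body gene. The sum of all 10 fat body markers was lower on poor food in 12 of 12 populations, with a median of 32946 CPM on the poor and 61655 CPM on the standard diet. Of 12 Malpighian tubule markers 10 were negative. EdgeR called 0 of them and DESeq2 3, and 4 had an unadjusted p below 0.05 in edgeR. The tubule sum ranged from 124 to 361 CPM on the poor (median 168) and from 80.9 to 391 CPM on the standard diet (median 239). In Selected it ran from 124 to 187 CPM on poor and from 205 to 391 CPM on standard food. In Control it ran from 135 to 361 CPM on poor and from 80.9 to 320 CPM on standard food. Of 17 tested midgut markers 15 were negative, with medians of 1876 CPM on the poor and 1624 CPM on the standard diet for the sum. Markers of other tissues were mostly positive on the poor diet: 9 of 9 for neurons, 14 of 16 for muscle, 5 of 5 for oenocytes and 8 of 10 for hemocytes. Populations were less uniform. The sum was lower on poor food in 3 of 12 populations for neurons, 5 for muscle, 6 for oenocytes and 6 for hemocytes. In these 4 lists edgeR called 0 markers for diet, while DESeq2 called 2 neuron and 2 muscle markers. Unadjusted p in edgeR was below 0.05 for 3 neuron, 4 muscle, 3 hemocyte and 0 oenocyte markers. None of these listed markers was at 0 in all libraries.

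Over the 12 populations the diet difference of GstD1 was compared with that of 4 marker sums, within the family of 232 relations described further on. It had r = -0.0062 with the midgut sum (adjusted permutation p = 0.985; rho = 0.04, adjusted permutation p = 0.987; r = -0.38 without the 2 farthest populations) and r = 0.09 with the tubule sum (adjusted permutation p = 0.898; rho = 0.14, adjusted permutation p = 0.913; r = 0.35 without them). With the hemocyte sum GstD1 had r = -0.56 (adjusted permutation p = 0.280; rho = -0.48, adjusted permutation p = 0.412), which was 0.00042 without the 2 populations farthest from the median. With the ovary and germline sum r was 0.22 (adjusted permutation p = 0.745, rho = 0.34 with adjusted permutation p = 0.593). The part of the fat body markers in the GstD1 difference was not tested.

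The other Delta genes pointed the same way without passing the test. All 6 tested Delta genes were negative, with a median log2 fold change of -0.41, and the summed Delta CPM was lower on the poor diet in 12 of 12 populations, GstD1 being its largest part. GstD2 (-0.39 ± 0.36), GstD5 (-0.50 ± 0.33) and GstD10 (-0.14 ± 0.25) had wide errors and averaged only 0.522, 0.671 and 0.620 CPM. They were lower on poor food in 9, 7 and 8 of 12 populations. GstD3 had 1.03, 2.13 and 3.28 CPM on the poor diet against 1.60, 2.80 and 6.70 CPM on the standard diet. Its ranges overlapped and 10 of 12 populations were lower on poor food (log2 fold change -0.57 ± 0.17, adjusted p = 0.124 in edgeR's quasi-likelihood test). DESeq2, which called 548 genes for diet, gave GstD3 -0.58 with an adjusted p of 0.0291. GstD9 had 2.29, 3.52 and 5.31 CPM on the poor diet against 3.19, 4.29 and 6.20 CPM on the standard diet, and was lower in 11 of 12 populations, all but C1 (-0.28 ± 0.08, adjusted p = 0.133 in edgeR). In all, 1.53% of tested genes were lower on poor food in at least 11 populations.

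Of 13 tested Epsilon genes, 12 were negative on the poor diet with a median log2 fold change of -0.16. EdgeR called 0 of them and DESeq2 1, and 4 had an unadjusted p below 0.05. GstE11 had 5.05, 10.2 and 24.7 CPM on the poor diet against 4.99, 13.5 and 30.0 CPM on the standard diet, with overlapping ranges and 9 of 12 populations lower (-0.28 ± 0.09, adjusted p = 0.148 in edgeR). GstE7 had 2.24, 4.06 and 9.60 CPM on the poor diet against 3.13, 5.56 and 9.14 CPM on the standard diet. It was lower on poor food in all 6 Selected and in 4 Control populations (-0.38 ± 0.12, adjusted p = 0.158 in edgeR). In S5 the log2 difference was only -0.0029, so the 2 libraries were nearly equal there.

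GstE10 had the widest values of the tested genes, 0, 0.433 and 5.46 CPM on the poor diet against 0.138, 3.61 and 7.35 CPM on the standard diet. It was lower on poor food in 10 of 12 populations, with a log2 fold change of -1.75 ± 0.70 and an adjusted p of 0.228 in edgeR, while DESeq2 called it. At such low counts a difference in GstE10 rests on few reads in part of the libraries. GstE12, the most abundant gene, had 244, 318 and 403 CPM on the poor diet against 237, 383 and 558 CPM on the standard diet (-0.16 ± 0.08, adjusted p = 0.313 in edgeR). Its poor-diet range lay within its standard-diet range, and 9 of 12 populations were lower on poor food. GstE14, known as noppera-bo and needed for ecdysteroid synthesis, was the 1 Epsilon gene with a positive value (0.11 ± 0.30).

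Of the 10 Omega, Sigma, Theta and Zeta genes 0 were called for diet by edgeR or DESeq2, and 2 had an unadjusted p below 0.05. The 3 Omega genes were negative, from -0.24 for GstO1 to -0.08 for GstO3, and GstO3 had 51.1, 69.7 and 82.7 CPM on the poor diet against 47.4, 72.4 and 96.2 CPM on the standard diet. GstS1 had 17.9, 29.2 and 61.5 CPM on the poor diet against 24.2, 36.6 and 50.6 CPM on the standard diet (-0.24 ± 0.14, adjusted p = 0.391 in edgeR), with 9 of 12 populations lower. In the Theta class GstT1 (0.22 ± 0.08, adjusted p = 0.198) and GstT3 (0.16 ± 0.07, adjusted p = 0.259) were positive in the edgeR fit, each higher on poor food in 9 of 12 populations, and GstT2 and GstT4 were slightly negative.

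GstT3 had 28.0, 38.2 and 55.9 CPM on the poor diet against 27.3, 33.8 and 50.2 CPM on the standard diet. GstT4 had 157, 219 and 320 CPM on the poor diet against 128, 240 and 374 CPM on the standard diet. The diets overlapped over most of their range for both genes. GstZ2 had 16.3, 29.6 and 40.8 CPM on the poor diet against 13.9, 29.1 and 43.5 CPM on the standard diet, which also overlapped, and it was lower on poor food in 6 of 12 populations.

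Across the 29 tested Gst genes the median log2 fold change for diet was -0.14, against -0.03 for all tested genes. Of the 29, 25 were negative (86.2%, against 55.7% of all genes), the exceptions being GstE14, GstT1, GstT3 and GstZ2. The median difference over the tested Gst genes was negative in each of the 12 populations, averaging -0.14 ± 0.07 (SD). Unadjusted p was below 0.05 for 9 of 29 (31.0%, against 17.6% of all genes): GstD1, GstD3, GstD9, GstE7, GstE8, GstE10 and GstE11 on the lower side, and GstT1 and GstT3 on the higher side. Independence of tandem neighbours was not tested, so these counts do not stand for independent genes.

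**Figure D3:**
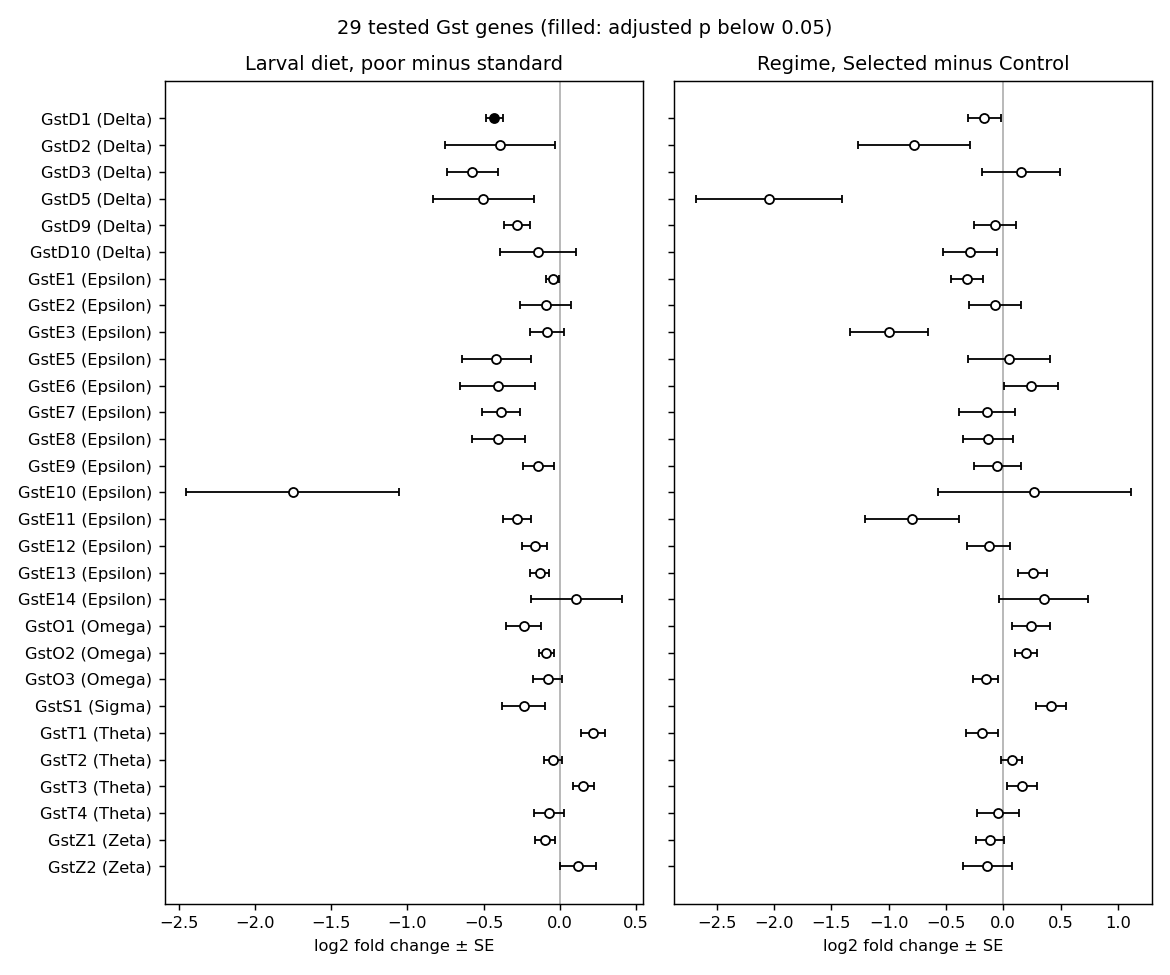
Log2 fold change ± SE of the 29 tested Gst genes for larval diet (poor minus standard, left) and regime (Selected minus Control, right), ordered by class; a filled point has an adjusted p below 0.05. GstD1 for diet is the filled point, 25 of 29 points lie left of 0 for diet, and 18 of 29 lie left of 0 for regime, with GstD5 at -2.05 the furthest.

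Within each regime taken alone, 0 Gst genes were called for diet by edgeR, among 0.628% of all genes called in Selected and 0 genes in Control. In Selected populations 5 of 29 Gst genes had an unadjusted p below 0.05 (17.2%, against 10.6% of all genes), and DESeq2 called 3 (GstD1, GstE7 and GstE10) among 395 genes in all. In Control populations 1 did (3.45%, against 3.86% of all genes), and DESeq2 called GstD1 among 15 genes in all. GstD1 had a log2 fold change of -0.46 ± 0.08 in Selected (adjusted p = 0.0808 in edgeR) and of -0.37 ± 0.07 in Control (adjusted p = 0.920 in edgeR, rank 4 of all genes by p). Its Selected libraries had 132, 147 and 195 CPM on poor food against 167, 228 and 248 CPM on standard food. Its Control libraries had 137, 170 and 222 CPM on poor food against 169, 221 and 322 CPM on standard food.

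Whether the diet response differed between regimes was tested as an interaction, the diet effect in Selected minus that in Control. No Gst gene and no other gene was called by edgeR (adjusted p for every Gst gene 1.00), 0 of 29 had an unadjusted p below 0.05 (1.52% of all genes did), and DESeq2 called 0 Gst genes. For GstD1 the difference of log2 fold changes was -0.11 ± 0.11. GstE10 had the smallest p of the 29 (unadjusted p = 0.0640), with an interaction of -2.48 ± 1.22. In Selected it had 0, 0.433 and 1.99 CPM on poor food against 0.871, 4.58 and 6.73 CPM on standard food, and 6 of 6 populations were lower on poor food. In Control it had 0, 0.505 and 5.46 CPM on poor food against 0.138, 0.682 and 7.35 CPM on standard food.

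GstE7, GstT3 and GstD3 followed GstE10 by p in the interaction. GstE7 had -0.46 ± 0.22, with medians of 3.51 CPM on poor and 5.59 CPM on standard food in Selected, and 4.26 CPM on poor and 5.48 CPM on standard food in Control. GstT3 had 0.21 ± 0.13, with medians of 44.1 CPM on poor and 32.6 CPM on standard food in Selected, and 37.0 CPM on poor and 34.4 CPM on standard food in Control. GstD3 had -0.42 ± 0.33, with medians of 2.13 CPM on poor and 3.10 CPM on standard food in Selected, and 2.47 CPM on poor and 2.48 CPM on standard food in Control.

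The second comparison asked how the evolutionary regimes differ, using the sum of both libraries of each population. No Gst gene was called, by edgeR or by DESeq2, while edgeR called 0.0295% of all genes. Unadjusted p was below 0.05 for 4 of 29 Gst genes (13.8%, against 10.7% of all genes): GstD5, GstE3 and GstE1 with lower and GstS1 with higher values in Selected. The median log2 fold change of the 29 was -0.08, against 0.01 for all genes, with 18 negative and 11 positive. No Gst gene had regimes that did not overlap, while 0.776% of all tested genes did.

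GstD5, a sparsely expressed Delta gene, had population means of 0.0853, 0.227 and 0.634 CPM (lowest, median, highest) in Selected, against 0.252, 0.719 and 2.23 CPM in Control. Of the 6 Selected populations 4 lay below all Control populations, and S5 and S6 lay within the Control range (log2 fold change -2.05 ± 0.64, adjusted p = 0.270 in edgeR). GstE3 had 8.65, 13.7 and 28.7 CPM in Selected, against 17.0, 27.8 and 60.7 CPM in Control, again with 4 Selected populations below all Control ones (-0.999 ± 0.34, adjusted p = 0.302 in edgeR). The Control range of GstE3 was widened by C3, without which the log2 fold change was -0.69 and the adjusted p 0.501. GstE1, whose enzyme conjugates 4-hydroxynonenal, had 27.0, 39.0 and 48.6 CPM in Selected, against 37.3, 51.5 and 52.6 CPM in Control. 3 Selected populations lay below all Control ones (-0.31 ± 0.14, adjusted p = 0.446 in edgeR).

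GstS1 went the other way, with 31.6, 37.6 and 47.4 CPM in Selected, against 23.9, 27.7 and 37.5 CPM in Control. 3 Selected populations lay above all Control ones, with a log2 fold change of 0.42 ± 0.13 and an adjusted p of 0.272 in edgeR. GstE11 differed widely between populations of each regime. S6 had 24.7 CPM on poor and 25.5 CPM on standard food, while the other Selected libraries had 4.99 to 9.95 CPM. Among Control populations C1 had 6.68 CPM on poor and 6.72 CPM on standard food, while the others had 11.3 to 30.0 CPM. The regime fold change of GstE11 was -0.80 ± 0.41 (adjusted p = 0.526 in edgeR), and the regimes overlapped at both ends.

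Tissue markers were also compared between the regimes. All 19 ovary and germline markers were positive in Selected (median log2 fold change 0.95) and 9 of 10 hemocyte markers were negative (median -0.56). EdgeR called 0 in either list, DESeq2 called 0 ovary and 4 hemocyte markers, and unadjusted p was below 0.05 for 0 ovary and 6 hemocyte markers. The hemocyte sum ran from 384 to 781 CPM in Selected and from 563 to 1156 CPM in Control libraries. Over the 12 populations the mean of both diets correlated with the hemocyte sum at r = 0.73 for GstD5 (adjusted permutation p = 0.0704, rho = 0.71 with adjusted permutation p = 0.119; r = 0.26 within Selected and 0.58 within Control). GstE3 had r = 0.70 (adjusted permutation p = 0.0957, rho = 0.66 with adjusted permutation p = 0.165; r = 0.27 within Selected and 0.54 within Control). GstE1 had r = 0.68 (adjusted permutation p = 0.118, rho = 0.59 with adjusted permutation p = 0.241; r = 0.74 within Selected and 0.32 within Control). GstS1 had r = -0.66 (adjusted permutation p = 0.128, rho = -0.78 with adjusted permutation p = 0.0824; r = 0.41 within Selected and -0.82 within Control). Without the 2 farthest populations r was 0.32 for GstD5, 0.54 for GstE3, 0.66 for GstE1 and -0.46 for GstS1. The part of these tissues in the regime differences was not tested.

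**Figure D4:**
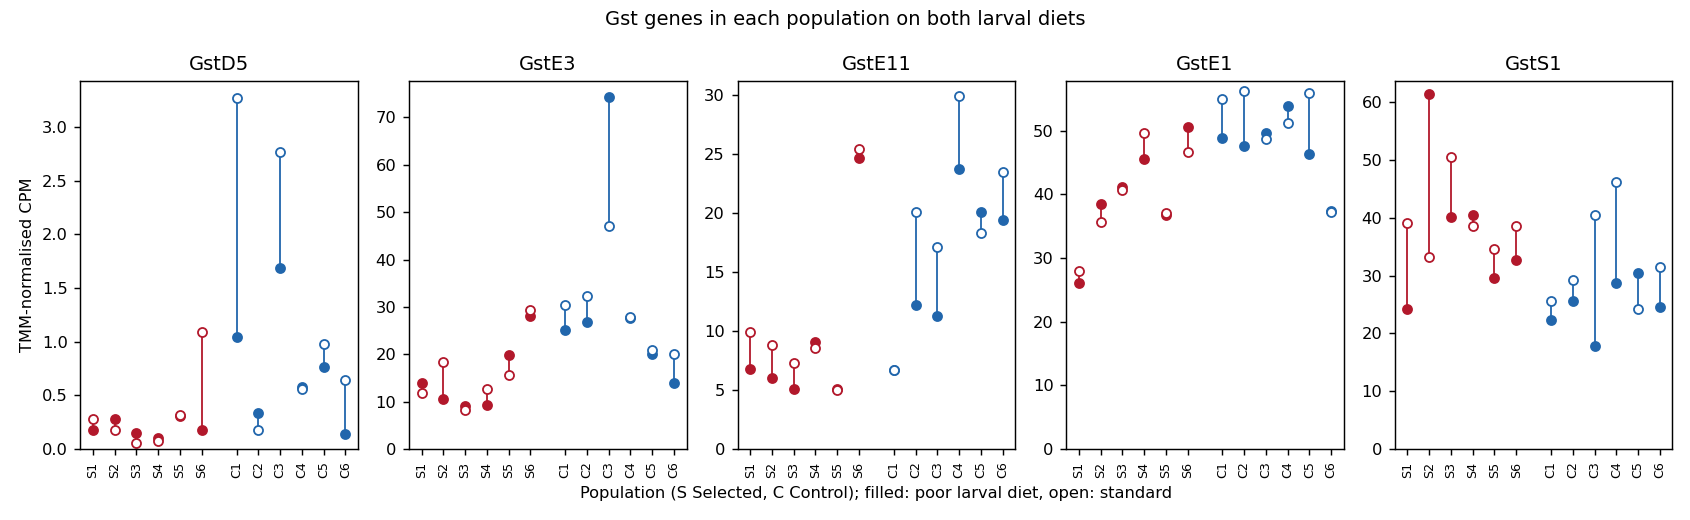
GstD5, GstE3, GstE11, GstE1 and GstS1 in TMM-normalised CPM in each population, Selected (S1 to S6) left of Control (C1 to C6), with filled points for the poor and open points for the standard larval diet. GstE11 is near 25 CPM on both diets in S6 alone among Selected populations, and GstE3 reaches 74.4 CPM in C3 on poor food.

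None of the most abundant genes was called for regime. GstE12 had 259, 300 and 470 CPM in Selected, against 261, 361 and 443 CPM in Control. GstD1 had 149, 192 and 211 CPM in Selected, against 157, 195 and 272 CPM in Control (-0.17 ± 0.14, adjusted p = 0.736 in edgeR). GstT4 had 187, 226 and 310 CPM in Selected, against 143, 231 and 309 CPM in Control, and the sign of its small difference (-0.05 ± 0.18) changed when C3, C6 or S1 was left out. GstO3 had 49.2, 68.1 and 83.0 CPM in Selected, against 67.8, 75.0 and 77.5 CPM in Control, and GstZ2 had 17.8, 25.4 and 37.2 CPM in Selected, against 18.5, 29.9 and 40.0 CPM in Control.

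On the poor diet alone edgeR called 0 Gst genes for regime and 0.0589% of all genes, and 4 Gst genes had an unadjusted p below 0.05 (9.91% of all genes did): GstD5 (-1.92 ± 0.53), GstE3 (-1.05 ± 0.41), GstS1 (0.61 ± 0.21) and GstO2 (0.26 ± 0.12). On the standard diet alone it called 0 Gst genes and 0.00982% of all genes, and 3 had such a p (6.38% of all genes did): GstD5 (-2.07 ± 0.81), GstE3 (-0.89 ± 0.29) and GstE1 (-0.35 ± 0.14). DESeq2 called 0 Gst genes on either diet. The regimes did not overlap for 0 Gst genes on the poor and 0 on the standard diet, against 0.717% and 0.383% of all genes.

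A population tended to keep its Gst level across diets. With the regime mean removed, the level on poor food and the level on standard food over the 12 populations had a median Pearson r of 0.59 over the 29 Gst genes, against 0.28 over all tested genes, and 26 of 29 were positive, as were 8148 of the 10184 tested genes. The 29 correlations were adjusted together, and no p was computed for the other genes. GstE11 had the smallest p of the 29, with r = 0.91 (adjusted permutation p = 0.0142, Spearman's rho = 0.86 with adjusted permutation p = 0.0435). Without the 2 populations farthest from the median, GstE11 had r = 0.78.

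GstE3 followed with r = 0.82 (adjusted permutation p = 0.0187, rho = 0.73 with adjusted permutation p = 0.0631, and r = 0.78 without 2 populations). GstE1 had r = 0.88 (adjusted permutation p = 0.0242, rho = 0.73 with adjusted permutation p = 0.0861, and r = 0.62 without 2 populations). GstD1 had r = 0.83 (adjusted permutation p = 0.0394, rho = 0.76 with adjusted permutation p = 0.0631, and r = 0.82 without 2 populations). GstD9 had r = 0.78 (adjusted permutation p = 0.0396, rho = 0.80 with adjusted permutation p = 0.0631, and r = 0.74 without 2 populations) and GstE7 r = 0.72 (adjusted permutation p = 0.0446, rho = 0.61 with adjusted permutation p = 0.117, and r = 0.57 without 2 populations). For GstE11 r was 0.94 within Selected and 0.90 within Control, each over 6 populations. In each regime 1 population stood apart on both diets. S6 had 24.7 CPM on poor (next highest 9.05) and 25.5 CPM on standard food (next highest 9.95). C1 had 6.68 CPM on poor (next lowest 11.3) and 6.72 CPM on standard food (next lowest 17.1). How far the values within regimes rest on S6 and C1 was not tested.

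Several Gst genes moved with markers of tissues that remained in the carcass. In all, 232 relations were computed over 12 populations, between 29 Gst genes and 4 marker sums, for the poor minus standard difference and for the mean of both diets. All used log2 CPM from the same libraries, so values share depth and composition. After adjustment over the 232, 14 had an adjusted permutation p below 0.05 for Pearson's r, and 5 for both r and rho. The diet difference of GstO1 rose with that of the ovary and germline sum (r = 0.90, adjusted permutation p = 0.0186, rho = 0.86, adjusted permutation p = 0.0410, and r = 0.96 without the 2 farthest populations). It fell with that of the hemocyte sum (r = -0.89, adjusted permutation p = 0.0186, rho = -0.91, adjusted permutation p = 0.0255, and r = -0.90 without 2 populations).

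The diet difference of GstE6 also rose with the ovary sum (r = 0.84, adjusted permutation p = 0.0186, rho = 0.84, adjusted permutation p = 0.0410, and r = 0.95 without 2 populations), while that of GstT4 fell with it (r = -0.88, adjusted permutation p = 0.0186, rho = -0.90, adjusted permutation p = 0.0348, and r = -0.88 without 2 populations). For GstE10 the diet difference went with that of the Malpighian tubule sum (r = 0.80, adjusted permutation p = 0.0420, rho = 0.86, adjusted permutation p = 0.0410, and r = 0.77 without 2 populations). Within regimes this relation of GstE10 had r = 0.52 in Selected and r = 0.70 in Control. With the ovary sum, GstE6 had r = 0.97 in Selected and 0.53 in Control, and GstO1 had 0.92 and 0.89. GstT4 had r = -0.99 in Selected and -0.76 in Control with the ovary sum. The tubule sum was lower on the poor diet in 8 of 12 populations, and 2 tubule transporter genes, Oatp58Db and Oatp58Dc, were called lower on poor food in Selected. The part of these tissues in the Gst differences was not tested.

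**Figure D5:**
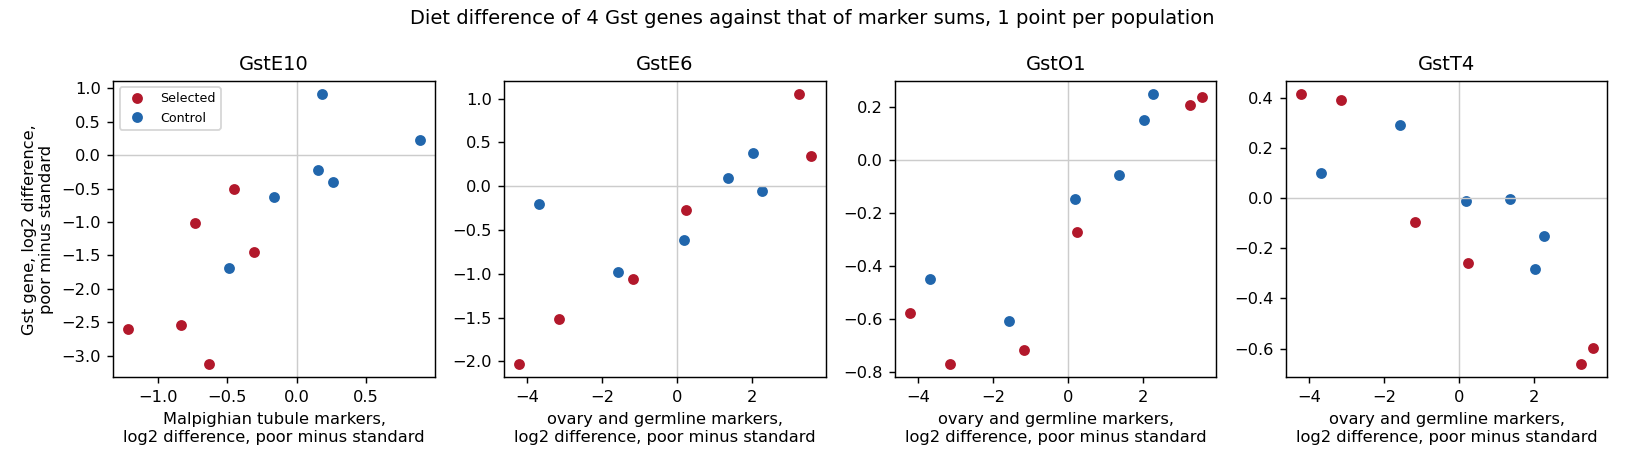
Log2 difference (poor minus standard) of GstE10 against that of the summed Malpighian tubule markers, and of GstE6, GstO1 and GstT4 against that of the summed ovary and germline markers, with 1 point per population, Selected or Control. Points rise from left to right for GstE10, GstE6 and GstO1 (r = 0.80, 0.84 and 0.90) and fall for GstT4 (r = -0.88).

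Genes that supply or surround glutathione chemistry were read from 9 lists of 51 genes, of which 47 were matched and 42 tested. Gss1 and Gss2, both glutathione synthetase genes, had the same estimated count within 1 read in every library and are counted here as 1 measurement, which leaves 41 tested. None was called for diet, regime or interaction by edgeR. DESeq2 called 0 for diet, 2 for regime (Tat and shd) and 0 for the interaction, and for the interaction 0 of 41 had an unadjusted p below 0.05 in edgeR. For diet 2 of 41 had an unadjusted p below 0.05 (4.88%), a smaller share than the 17.6% of all genes. Trx2, a thioredoxin, averaged 134 ± 15.2 CPM on poor and 147 ± 11.5 CPM on standard food (SD, n = 12 each), and Prx6a, a peroxiredoxin, averaged 6.77 ± 0.979 CPM on poor and 7.95 ± 1.32 CPM on standard food. All 6 tested thioredoxin and peroxiredoxin genes were negative for diet (median -0.14).

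For regime 3 of 41 had an unadjusted p below 0.05 (7.32%), also a smaller share than the 10.7% of all genes. Gclm, the regulatory subunit of the enzyme that starts glutathione synthesis, averaged 169 ± 34.5 CPM in Selected and 220 ± 29.6 CPM in Control (SD, n = 6 each; adjusted p = 0.341 in edgeR). Tat, tyrosine aminotransferase, averaged 45.3 ± 11.3 CPM in Selected and 70.1 ± 12.4 CPM in Control, and all 5 tyrosine breakdown genes, which act in the pathway of the Zeta enzymes, were negative (median -0.38). GstZ1 (-0.11 ± 0.12) and GstZ2 (-0.14 ± 0.21) were negative as well and were not called. The third gene was shd, a hydroxylase of ecdysteroid synthesis, with 11.2 ± 2.84 CPM in Selected and 17.4 ± 3.80 CPM in Control, while the other 5 tested genes of that list were positive (median of all 6 0.51). Those 5 (nvd, sro, spo, dib and sad) were near the floor, with regime means of 0.198 to 1.19 CPM. Their log2 fold changes had an SE of 0.43 to 0.94 and an unadjusted p of 0.235 to 0.806 in edgeR.

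The lists also placed the Gst genes on the scale of the carcass. By mean TPM the highest gene of each list was Gclm at 198 for glutathione synthesis, Mgstl, a microsomal glutathione S-transferase, at 498 for other glutathione enzymes, and Prx5 at 375 for thioredoxins and peroxiredoxins. Sod1, superoxide dismutase, had 1691 TPM, Men, malic enzyme, 678 TPM, and ref(2)P, an autophagy receptor, 452 TPM. Sam-S, which makes S-adenosylmethionine, had 340 TPM, Hn, phenylalanine hydroxylase, 323 TPM, and shd 7.30 TPM. GstE12 at 512 TPM thus stood beside Mgstl among glutathione-conjugating enzymes, and all 35 Gst genes summed to 2023 TPM.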

How the data were processed

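Per the submitters' processing notes, the tools were kallisto 0.46.2, limma and edgeR, and the build was BDGP6. Per the file headers, the deposited tables hold estimated counts and TPM per transcript. The authors also deposited log2 CPM of 8746 genes in 1 table, used as an alternative. Here estimated counts were joined to genes by identifier (BDGP6.54, release 115; 0.282% of counts were not joined), summed per gene and rounded to whole numbers.

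The quasi-likelihood F test of edgeR 4.0.16 (R 4.3.3; TMM, filterByExpr) was run over 10184 genes, with Benjamini-Hochberg adjustment and a threshold of 0.05; SE was derived from F and the fold change. Diet was fitted with population as a block and regime on population sums. CPM is TMM-normalised; differences by population used log2(CPM + 0.5). Correlations used 100000 permutations. For levels across diets, regime means were removed and populations were shuffled within regimes. For marker relations, regime means were kept and all 12 populations were shuffled together. Alternatives were DESeq2 1.42.0, RLE factors, no low-count filter, no block (for regime, a block on the number), the deposited log2 CPM with limma 3.58.1, and each population left out. The test was tried on simulated data.

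The characteristics pair the 2 libraries of each population, and their deviations correlated at 0.248 on average (-0.179 to 0.735). Nothing in the labels says whether populations were handled in batches. Total counts of 22.4 to 31.5 M leave counting error mainly at genes below 1 CPM. Members and lists were chosen with earlier results of these data known. Per-library values are given for genes called, the highest of each class in TPM, the 4 smallest p for diet, regime and interaction, and genes whose groups do not overlap; GstT1, GstO2 and GstE9, and the genes named for relations to markers, were added after their values were seen. Sequences were not used here.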

Additional observations from a re-analysis of the deposited data

Results flagged for a closer look

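Among 60 groups of 6 libraries, 15 Gst genes in 4 groups, 7 held a library far from the others by Dixon's criterion. The criterion picks about 1 group in 20 where values are normal and groups independent. These groups share libraries and the 15 genes were partly chosen from these data, so the 7 cannot be set against that rate. No explanation was tested. In S6, GstE11 had 24.7 CPM on poor food (next highest of the 6 Selected libraries on that diet 9.05) and 25.5 CPM on standard food (next 9.95), so both libraries of this population stood apart. S6 on standard food was also apart for GstD5, with 1.09 CPM against a next highest of 0.318, and for GstT3, with 50.2 CPM against 37.8. That library has the highest midgut marker sum, 20231 CPM, and its part in these values was not tested. In C3 on poor food GstE3 had 74.4 CPM (next highest of the 6 Control libraries on poor food 27.7). GstE7, of the same tandem group but not adjacent, had 9.60 CPM there (next 4.58). Outside the 15 genes, GstE8 (7.45, next 3.33), GstE5 (1.85, next 0.631) and GstD2 (2.13, next 0.645) were also highest in that library. So were GstE9 (221, next 198), GstT1 (92.4, next 67.1) and GstE2 (1.13, next 1.08), and the untested GstD4 and GstD8. Of the 15 genes, GstD1 (222, next 215), GstD3 (3.28, next 3.09), GstD5 (1.69, next 1.04) and GstT4 (320, next 260) were highest there as well. The remaining Gst genes were highest in another of these 6 libraries. GstE6, which lies between GstE3 and GstE7, was highest in C4. The C3 library on poor food had the lowest fat body marker sum, 13802 CPM, whose part was not tested. S3 on standard food had 50.6 CPM of GstS1, with the next of the 6 Selected libraries on standard food at 39.0 CPM.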

How the results depend on the processing

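GstD1 kept a negative diet difference under every alternative run. With one population left out it ranged from -0.46 to -0.39 (adjusted p 0.00665 to 0.0426), and on the deposited log2 CPM it was -0.42 (adjusted p = 0.0108). The number of Gst genes called for diet was 1 in each of these, 3 by DESeq2 (GstD1, GstD3 and GstE10) and 0 with no replicate block, where the 2 libraries of a population were treated as unpaired and GstD1 had -0.44 (adjusted p = 0.0950). GstD3 passed by DESeq2 (-0.58). Within regimes DESeq2 called 3 Gst genes for diet in Selected and 1 in Control, against 0 in each by edgeR. Over all genes, diet calls were 1.13% of genes by edgeR, and numbered 548 by DESeq2, 84 with no filter and 21 with no block, and regime calls 3 by edgeR and 221 by DESeq2. The cause of these differences was not tested.

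The median log2 fold change of the Gst genes stayed negative for diet when each population was left out (-0.19 to -0.10). For regime it ranged from -0.151 to 0.0390 and reversed without Control population C3 (0.0390). The regime value of GstT4 reversed on the deposited log2 CPM (0.0046) and without C3 (0.0430), C6 (0.0099) or S1 (0.0129), in a range of -0.164 to 0.0430. Pairing Selected and Control populations by their shared number as a block gave 0 Gst genes and a median of -0.08. Same-numbered populations correlated at -0.42 to -0.10. Differently numbered ones were not compared, so whether the numbers pair the populations was not tested.

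Depth limits the 6 untested genes most, and among tested genes GstD2, GstD5, GstD10, GstE2 and GstE5, which average below 1 CPM (387 to 684 estimated counts over the 24 libraries).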
